A study of Homo sapiens with 4 samples.

Results

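The mRNAs of 10 genes for poly(A)-binding proteins and the proteins that work with them were followed through 4 RNA libraries of MDA-MB-231 cells, a line grown from a triple-negative human breast cancer. The genes were chosen by symbol from a fixed list (PABPC1, PABPC4, PABPN1, PAIP1, PAIP2, PAN2, PAN3, PARN, LARP1 and LARP4), and all 10 had a value in each of the 4 gene tables, which share 11288 genes. Each library was a group of its own. Input was RNA of the cell lysate, and the pulldown was RNA recovered from lysate on magnetic beads carrying an anti-PABPC1 antibody. The library labelled Si-LINC00882 came from cells in which LINC00882, a long non-coding RNA, was targeted by transfection, and the library labelled Si-NC-LINC00882 from cells treated as its control (si_LINC00882 and si_NC here). All cells were grown in L15 medium with 10% fetal bovine serum. For the knockdown the labels give an siRNA in the protocol and a Smart Silencer in the description, they mention IgG for the pulldown, and neither LINC00882 nor an IgG library was analysed here, so the knockdown was not checked and RNA that binds the beads without the antibody was not measured. With 1 library per group there were no replicates and no test, and each difference below describes these libraries only.

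Nearly every mRNA ends in a poly(A) tail that is coated by poly(A)-binding proteins. In the nucleus PABPN1 binds the growing tail, and in the cytoplasm PABPC1 and its paralog PABPC4 take over, bring the tail into contact with the cap-binding complex and favour translation. A set of partners reads or trims this assembly. PAIP1 stimulates translation through PABPC1 and PAIP2 displaces PABPC1 from the tail, LARP1 and LARP4 bind both PABPC1 and mRNA, and PAN2 with PAN3 and the nuclease PARN shorten the tail.

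Levels are FPKM, fragments per kilobase of transcript and per mapped fragments of the library, so they can be set against each other between genes. Differences are log2 ratios of FPKM plus 1, which understate the change of low genes, and 2-fold means an absolute log2 ratio of 1 or more. The summed FPKM ranged from 197844 after the pulldown to 338894 in input, and the part of it from mitochondrially encoded mRNAs was 47.3% in input against 3.08% after the pulldown, 16.3% with si_NC and 19.3% with si_LINC00882. The read depth is unknown, so no counting error can be given. Of the markers of the cell line, vimentin (VIM) stood between 155 and 367 FPKM, CD44 between 50.1 and 67.6 and EGFR between 11.4 and 29.9. KRT18 stood between 36.2 and 53.3 FPKM. CAV1 stood at 30.3 FPKM in input, 160 after the pulldown, 144 with si_NC and 116 with si_LINC00882. ERBB2 stood between 1.67 and 6.68 FPKM, and the epithelial marker EPCAM between 2.24 and 10.5. The leukocyte marker CD14 stood at 0.129 in input and 0.663 after the pulldown, and the other leukocyte markers, ESR1, PGR and CDH1 were not analysed here.

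PABPC1 was the most abundant of the 10 mRNAs in every library and PAN2 the least abundant. PABPC1 stood at 412 FPKM in input, 255 after the pulldown, 173 with si_NC and 158 with si_LINC00882. It ranked from 51 in input to 123 with si_LINC00882 among the 11288 genes, counted from the highest. Together the 10 mRNAs held 0.195% of all FPKM in input, 0.240% after the pulldown, 0.167% with si_NC and 0.163% with si_LINC00882. That total includes mitochondrially encoded mRNAs, which made up 47.3% of it in input and 3.08% after the pulldown. The higher share after the pulldown is therefore not a higher level. The members' summed FPKM was 661 in input, 475 after the pulldown, 350 with si_NC and 353 with si_LINC00882. PABPC1 alone gave 62.3% of the members' sum in input, 53.6% after the pulldown, 49.6% with si_NC and 44.8% with si_LINC00882. These are bulk libraries, in which fewer cells with a transcript and less of it per cell cannot be told apart.

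**Figure D1:**
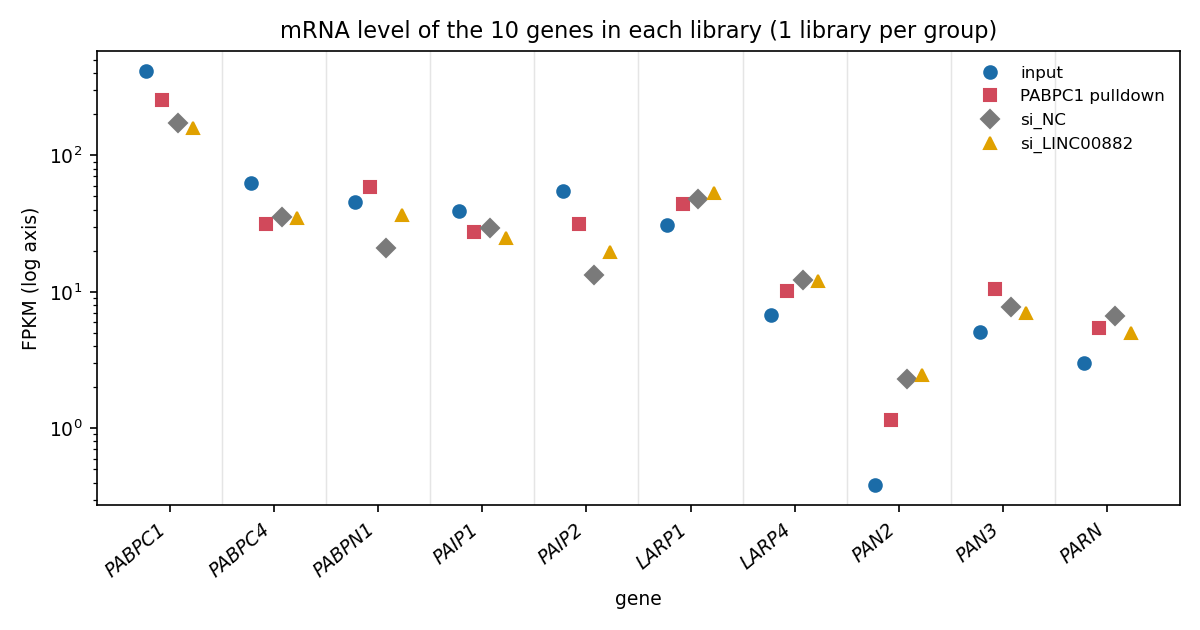
FPKM (log axis) of the 10 genes, with 1 point per library and no error bars because each group is 1 library. PABPC1 lies highest in all 4 libraries, from 158 to 412 FPKM, and PAN2 lowest, from 0.386 to 2.44 FPKM.

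PABPC4, a cytoplasmic paralog of PABPC1, stood at 62.8 FPKM in input, 31.6 after the pulldown, 35.3 with si_NC and 34.9 with si_LINC00882. The input library was thus the high one and the other 3 lay close together. PABPC1 mRNA exceeded PABPC4 mRNA 6.56-fold in input and 8.06-fold after the pulldown, against 4.91-fold with si_NC and 4.53-fold with si_LINC00882. Such a ratio is formed within a library and does not depend on how libraries were scaled. PABPC1 has many retrotransposed copies in the genome, among them PABPC3, so how fragments were divided among them is uncertain. PABPC3 was listed only with the transfected cells, at 0.540 FPKM in si_NC and 0.165 with si_LINC00882. PABPC4L, another relative, was listed only with the lysate libraries, at 0.754 FPKM in input and 0.858 after the pulldown. PABPC1L, which is best known from oocytes, stood at 0.831 in input, 1.28 after the pulldown, 4.96 with si_NC and 2.99 with si_LINC00882.

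PABPN1, the nuclear poly(A)-binding protein gene, stood at 45.9 FPKM in input, 58.5 after the pulldown, 21.0 with si_NC and 36.4 with si_LINC00882. Here si_NC was the low library. PABPC1 mRNA exceeded PABPN1 mRNA 8.98-fold in input and 8.24-fold with si_NC, and 4.35-fold in both the pulldown and si_LINC00882. The span of PABPN1 lies inside that of the readthrough gene BCL2L2-PABPN1, and how fragments were divided between them is uncertain. The readthrough gene stood at 1.49 FPKM in input, 1.78 after the pulldown, 3.39 with si_NC and 4.37 with si_LINC00882. It held 3.14% of the sum of both in input and 2.95% after the pulldown, but 13.9% with si_NC and 10.7% with si_LINC00882. No other member shares its span with another listed gene, as far as the 11347 of 12119 gene symbols found in RefSeq show.

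Of the PABP-interacting proteins, PAIP1 stood at 39.3 FPKM in input, 27.6 after the pulldown, 29.6 with si_NC and 24.6 with si_LINC00882. PAIP2, the translational inhibitor, spanned a wider range, at 55.1 FPKM in input, 31.3 after the pulldown, 13.2 with si_NC and 19.5 with si_LINC00882. The order of the stimulator and the inhibitor therefore differed between the library pairs. PAIP1 stood at 0.714 times the PAIP2 level in input and 0.879 times in the pulldown, and at 2.25 times with si_NC and 1.26 times with si_LINC00882. PAIP2B, a close relative of PAIP2, stood under 2 FPKM in every library, with 0.573 in input, 0.671 with si_NC and 0.852 with si_LINC00882.

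LARP1, which binds the cap and 5′ end of the mRNAs of ribosomal proteins and translation factors, stood at 30.7 FPKM in input, 44.2 after the pulldown, 48.2 with si_NC and 52.9 with si_LINC00882. LARP4, which binds poly(A) and protects tails, stood at 6.77 FPKM in input, 10.2 after the pulldown, 12.3 with si_NC and 12.1 with si_LINC00882. Both were lowest in input, and their ratio stayed between 3.93 and 4.54 in the 4 libraries.

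The deadenylase genes stood between 0.386 and 10.6 FPKM. PAN3, the subunit that binds PABPC1 and recruits the catalytic subunit, stood at 5.09 FPKM in input, 10.6 after the pulldown, 7.75 with si_NC and 6.94 with si_LINC00882. PAN2, the catalytic subunit, stood at 0.386 FPKM in input, 1.16 after the pulldown, 2.29 with si_NC and 2.44 with si_LINC00882. PAN2 thus stood lower in both lysate libraries than in both transfected ones, and PAN3 mRNA exceeded it 13.2-fold in input, 9.14-fold after the pulldown, 3.38-fold with si_NC and 2.85-fold with si_LINC00882. At under 3 FPKM in every library PAN2 rests on little signal. PARN, a cap-stimulated nuclease that also matures small RNAs, stood at 3.01 FPKM in input, 5.41 after the pulldown, 6.61 with si_NC and 5.03 with si_LINC00882.

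The position of each gene among the 11288 genes of a library, given as a percentile, does not depend on scaling. PABPC1 lay between percentile 98.9 and 99.6 and LARP1 between 89.9 and 94.8. PAIP2 lay at percentile 94.6 in input, 88.3 after the pulldown, 72.8 with si_NC and 82.0 with si_LINC00882, and PABPN1 at 93.5, 94.7, 83.3 and 91.4 in the same order. For both genes si_NC was the lowest library. PAN2 lay at percentile 5.55 in input and 7.69 after the pulldown, and at 23.6 with si_NC and 24.9 with si_LINC00882.

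**Figure D2:**
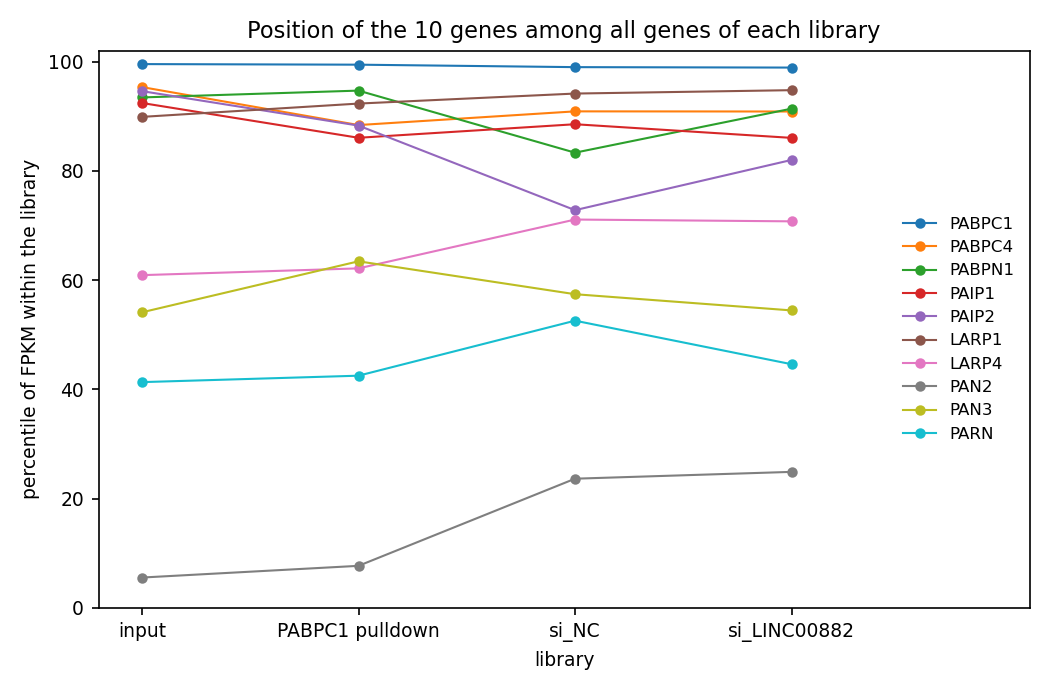
Percentile of the FPKM of each of the 10 genes among the 11288 genes of a library, in the 4 libraries. PAIP2 and PABPN1 dip in si_NC, to percentiles 72.8 and 83.3, and PAN2 lies under percentile 8 only in input and the pulldown, at 5.55 and 7.69.

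PABPN1 and PAIP2, the members with the highest ratios in si_LINC00882 over si_NC, and PAN2, the member that stood lowest in input against si_NC, are shown with the 250 bases before their RefSeq transcription start (GRCh38.p14). The windows are chr14:23321207-23321456 on the plus strand for PABPN1, chr5:139341604-139341853 on the plus strand for PAIP2 and chr12:56334001-56334250 on the minus strand for PAN2. Capitals mark matches on either strand to 6 motifs, the CCAAT box (CCAAT), the GC box (GGGCGG), the E-box (CACGTG), an ETS site (CCGGAAGT), the core of the cyclic AMP response element (TGACG) and the TATA box (TATAAA).
PABPN1: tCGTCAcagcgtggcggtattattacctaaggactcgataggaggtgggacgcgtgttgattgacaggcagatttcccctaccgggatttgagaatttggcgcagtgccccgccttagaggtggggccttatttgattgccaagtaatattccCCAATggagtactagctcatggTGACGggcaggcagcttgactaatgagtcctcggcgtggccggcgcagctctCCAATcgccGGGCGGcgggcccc
PAIP2: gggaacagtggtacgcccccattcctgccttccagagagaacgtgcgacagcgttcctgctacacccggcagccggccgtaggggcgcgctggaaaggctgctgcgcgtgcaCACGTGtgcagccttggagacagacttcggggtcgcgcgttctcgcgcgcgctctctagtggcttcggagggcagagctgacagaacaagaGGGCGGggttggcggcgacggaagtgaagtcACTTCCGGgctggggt
PAN2: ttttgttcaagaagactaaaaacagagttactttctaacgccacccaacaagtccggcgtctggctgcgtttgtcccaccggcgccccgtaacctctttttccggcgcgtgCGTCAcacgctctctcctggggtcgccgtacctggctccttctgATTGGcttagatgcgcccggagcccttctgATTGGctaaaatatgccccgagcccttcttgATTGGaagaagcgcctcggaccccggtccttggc
The PABPN1 window holds 2 CCAAT matches, 2 TGACG matches and 1 GC box, the PAIP2 window 1 GC box, 1 E-box and 1 ETS match, and the PAN2 window 3 CCAAT matches, all on the other strand, and 1 TGACG match. No matches to different motifs overlap. Among 27305 RefSeq promoter windows of the same length, 33.0% hold a CCAAT match, 42.3% a GC box, 6.49% an E-box, 3.64% the ETS letters, 21.7% TGACG and 11.1% TATAAA. The PABPN1 and PAIP2 windows share only the GC box, which is among the commonest of these motifs. The GC content was 57.6% for PABPN1, 66.0% for PAIP2 and 57.2% for PAN2, with a median of 58.0% over all windows. A match describes the letters and does not show that a factor binds there.

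The pulldown asked which mRNAs were recovered with PABPC1, and none of the 10 mRNAs stood 2-fold apart between pulldown and input, where 21.9% of 10856 genes did. That rule adds 1 FPKM, and in FPKM alone PAN3 stood 2.08-fold and PAN2 2.99-fold higher in the pulldown. On that scale PABPC4 stood at 0.503 times its input level, and the PAN2 ratio rests on 0.386 FPKM in input. With 0.1 FPKM added, PAN2 and PAN3 were past 2-fold, where 33.7% of all genes were. With 1 FPKM added, PABPC4 came nearest to 2-fold in the low direction (log2 ratio -0.97) and PAN3 in the high direction (0.93). The mRNAs of both cytoplasmic poly(A)-binding proteins and of both PAIP proteins were lower in the pulldown, with PABPC1 at -0.69, PAIP2 at -0.79 and PAIP1 at -0.498. The other 6 members were higher, from PABPN1 (0.35), LARP1 (0.51) and LARP4 (0.52) to PAN2 (0.64), PARN (0.68) and PAN3. At 1.5-fold, 3 members were higher (PAN2, PAN3 and PARN) and 3 lower (PABPC1, PABPC4 and PAIP2), against 42.0% of all genes higher and 6.79% lower.

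The median log2 ratio of the 10 members was 0.43 and that of all genes 0.47, so most genes stood above input in this pair. Of all genes 2124 were 2-fold higher and 257 lower, and after subtracting that median 802 were higher and 831 lower. Relative to the median of all genes, PABPC4 (-1.43), PAIP2 (-1.26) and PABPC1 (-1.16) stood past 2-fold lower and PAIP1 at -0.96, while 7.65% of all genes were past 2-fold lower on that scale. PABPN1 changed sign there (-0.12), and LARP1 (0.05) and LARP4 (0.06) lay close to 0. The deadenylase genes kept their direction, with PAN3 at 0.46, PARN at 0.21 and PAN2 at 0.17.

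The choice of control library decides several of these directions. Against si_NC, which had another treatment, PABPC1 (0.55) and PAIP2 (1.19) stood higher in the pulldown, and PAN2 (-0.61), PARN (-0.25), LARP4 (-0.25) and LARP1 (-0.12) lower. PABPN1 stood at 1.43 in that comparison. Those that kept their direction were PABPC4 (-0.16), PAIP1 (-0.10), PABPN1 and PAN3 (0.40). PABPN1 and PAIP2 were past 2-fold, 2 of the 10 members, where 9.64% of 10810 genes were. Both comparisons share the pulldown library.

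**Figure D3:**
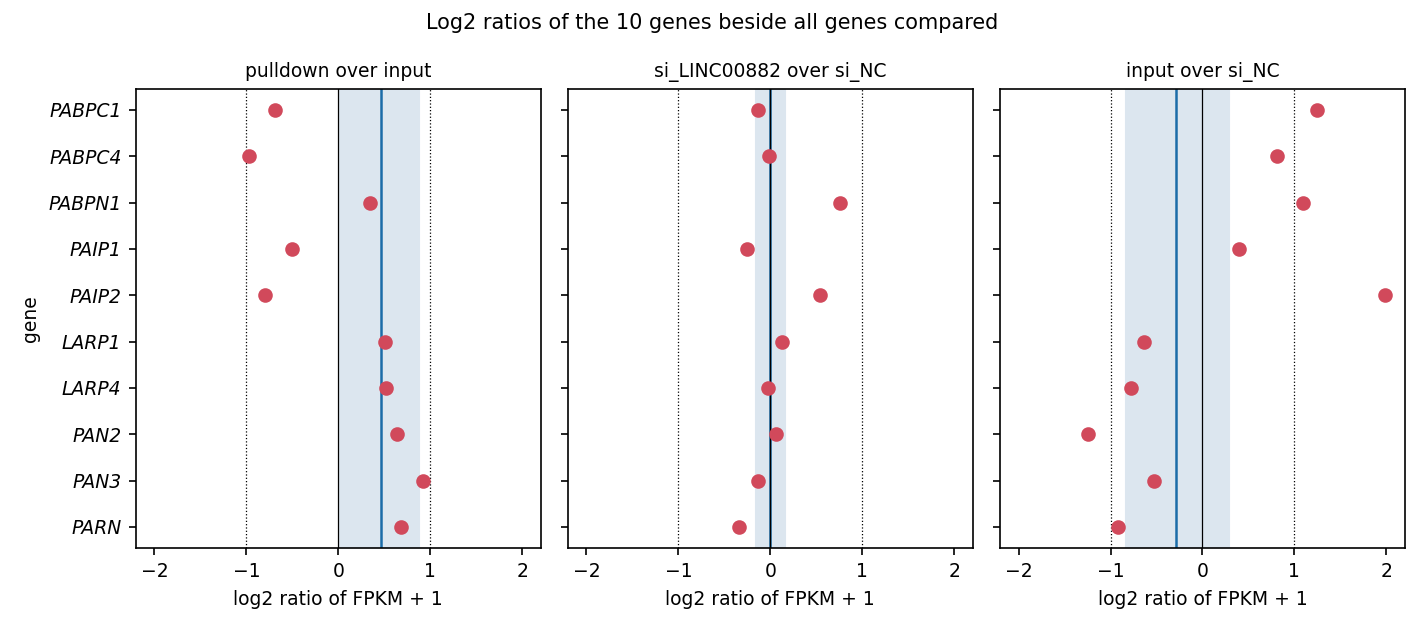
Log2 ratio of FPKM plus 1 for the 10 genes (points) in 3 comparisons, with the median (blue line) and the middle 50% (shaded) of all genes compared and dotted lines at 2-fold. In the pulldown over input the points run from -0.97 to 0.93, in si_LINC00882 over si_NC from -0.34 to 0.76, and in input over si_NC from -1.25 to 1.99.

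The silencer comparison asked which mRNAs differ when LINC00882 is targeted. None of the 10 members stood 2-fold apart between si_LINC00882 and si_NC, and 2.01% of 10478 genes did. PABPN1 had the highest ratio (0.76) and was the member past 1.5-fold, where 3.08% of all genes were past 1.5-fold higher. PAIP2 followed (0.54). PARN had the lowest ratio (-0.34), followed by PAIP1 (-0.25), PAN3 (-0.14) and PABPC1 (-0.13). PAN3, PABPC1, LARP1 (0.13), PAN2 (0.06), LARP4 (-0.02) and PABPC4 (-0.01) lay within the middle 50% of all genes, which ran from -0.16 to 0.15. The median of the 10 members was -0.02 and that of all genes -0.01. Against input in place of si_NC, PABPN1 (-0.33) and PAIP2 (-1.45) stood lower in si_LINC00882, PARN (0.59) and PAN3 (0.38) higher, and PAIP2, PABPC1 (-1.37) and PAN2 (1.31) were past 2-fold, 3 of the 10 members, where 25.1% of 10504 genes were. Those 2 libraries differ in treatment.

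Input and si_NC, which had neither a pulldown nor the LINC00882 silencer, stood 2-fold apart at 4 of the 10 members. Of these, 3 stood 2-fold higher in input, PAIP2 (1.99), PABPC1 (1.24) and PABPN1 (1.09), and PAN2 stood 2-fold lower (-1.25). In this comparison 5.95% of 10511 genes were 2-fold higher and 19.2% lower. PABPN1 summed with its readthrough gene fell short of 2-fold (0.93). PABPC4 (0.81) and PAIP1 (0.40) were higher in input as well, and PARN (-0.92), LARP4 (-0.77), LARP1 (-0.63) and PAN3 (-0.52) lower. Of all genes 625 were 2-fold higher and 2015 lower, and 1189 and 1244 after subtracting their median of -0.29. Relative to that median PABPC4 was also past 2-fold higher (1.10) and PAN2 was not past 2-fold lower (-0.96), with 11.3% of all genes past 2-fold higher and 11.8% lower on that scale. Input enters this comparison and the pulldown comparison, so the values of both are not independent of each other. Likewise si_NC enters this comparison, the silencer comparison and the pulldown over si_NC. PABPN1 and PAIP2 were lowest in si_NC and had positive ratios in all of these, which are therefore not separate observations.

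The genes whose levels followed PABPC1 most closely over the 4 libraries were IGFBP1, a secreted binding protein of insulin-like growth factors, RP9, FAM200B, CENPW, a centromere protein, and PCLAF, a partner of the replication clamp. They were ranked among 4621 genes of at least 5 FPKM in all libraries by the largest difference from PABPC1 in log2(FPKM + 1) after centring each gene on its mean, which was 0.05 for IGFBP1, 0.07 for RP9 and 0.08 for the other 3. IGFBP1 stood at 16.1 FPKM in input, 9.75 after the pulldown, 6.67 with si_NC and 6.05 with si_LINC00882, the same order of libraries as PABPC1 at a far lower level. FAM200B shares its span with FBXL5, so its value is uncertain. With 4 libraries, close likeness is easily met.

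Other genes around the poly(A) tail were grouped by role. Of proteins with a PAM2 motif, the short peptide that docks on the C-terminal MLLE domain of PABPC1, 14 that are not among the 10 members were compared in the pulldown over input. None stood 2-fold apart, 11 were higher and 3 lower, and their median was 0.73 against 0.47 for all genes. Most genes were higher in this pair, where the lower quartile of all genes was 0.02. With 1 FPKM added, low genes whose FPKM differed more than 2-fold, such as TNRC6A, did not reach the 2-fold rule. TNRC6A, a scaffold of microRNA silencing, stood at 2.40 FPKM in input and 5.35 after the pulldown (0.90), LARP4B at 4.84 and 9.62 (0.86) and ATXN2L, a paralog of ataxin-2, at 6.47 and 12.5 (0.85). In si_LINC00882 over si_NC, 7 of 14 were higher and 7 lower, none 2-fold (median -0.02). Against si_NC, the pulldown held 7 of 15 higher and 8 lower (median -0.07).

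Of the other genes listed as deadenylases or their relatives in sequence outside the CCR4-NOT complex, all 5 compared were higher in the pulldown than in input (median 0.52). NOCT, a circadian gene related in sequence to the CCR4 nucleases, was 2-fold higher (3.35 and 7.87 FPKM, 1.03). Whether each of the 5 shortens tails was not tested. TOE1 stood at 4.80 and 7.35 (0.52) and overlaps MUTYH and TESK2, and ANGEL2 stood at 4.28 and 6.48 (0.504). Relative to all genes their median was 0.06. Over si_NC, 2 of the 5 were higher in the pulldown and 3 lower (median -0.23), none 2-fold, with NOCT at 0.44. The La-related proteins other than LARP1 and LARP4 did not move together. LARP7, which holds the 7SK small nuclear RNA, stood at 19.3 FPKM in input and 8.46 after the pulldown (-1.10), and was 1 of 5 compared at 2-fold, while over si_NC it stood at -0.14 and none of the 5 was 2-fold apart. SSB, the La protein, which overlaps METTL5, stood at 58.1 and 41.2 (-0.48). In si_LINC00882 over si_NC none of these 10 genes stood 2-fold apart. ZC3H14, a nuclear poly(A)-binding zinc finger protein that overlaps EML5, stood at 5.19 FPKM in input, 4.72 after the pulldown, 4.31 with si_NC and 4.29 with si_LINC00882, the narrowest range of the poly(A)-binding protein genes with values in all 4 libraries.

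Of 10 factors that join PABPC1 to the cap or to translation termination, 2 were 2-fold higher in the pulldown than in input and none lower (median 0.26). They were EIF4G1, the scaffold that binds PABPC1 directly (12.7 and 56.4 FPKM, 2.07), and the helicase EIF4A2 (12.2 and 35.6, 1.47). EIF4A1, which shares its span with SENP3-EIF4A1, stood at 55.0 and 43.5 (-0.33). Over si_NC, EIF4G1 (-0.76) and EIF4A2 (-0.18) were lower in the pulldown. None of the 10 stood 2-fold apart between si_LINC00882 and si_NC (median -0.09).

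Of 25 genes for 3′ end cleavage and tail synthesis, 5 were 2-fold higher in the pulldown and 1 lower (median 0.54). The cytoplasmic poly(A) polymerase PAPD4 stood at 0.414 FPKM in input and 6.68 after the pulldown (2.44), the scaffold SYMPK at 2.34 and 8.55 (1.51) and the noncanonical polymerase PAPD7 at 5.33 and 14.4 (1.29). The cleavage factors CPSF1 (1.15), which overlaps ADCK5, and CPSF4 (1.14) were the others higher and RBBP6 (-1.18) the lower, named after their values were seen. Of 18 genes for decapping and 5′ to 3′ decay, 2 were 2-fold higher (median 0.49), the decapping scaffold EDC4 (1.56 and 5.24, 1.29) and the helicase DDX6 (10.4 and 24.3, 1.15). LSM14A stood just short of it (12.4 and 25.9, 0.998). Over si_NC, where 9.64% of all genes were past 2-fold, none of the 25 was 2-fold apart, and 1 of the 18 was 2-fold lower, the decapping enzyme DCP2 (-1.23), which overlaps MCC, also named after its values were seen. In si_LINC00882 over si_NC none of these genes stood 2-fold apart. In every list the share past 2-fold after the pulldown over input was near or under the 21.9% of all genes.

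**Figure D4:**
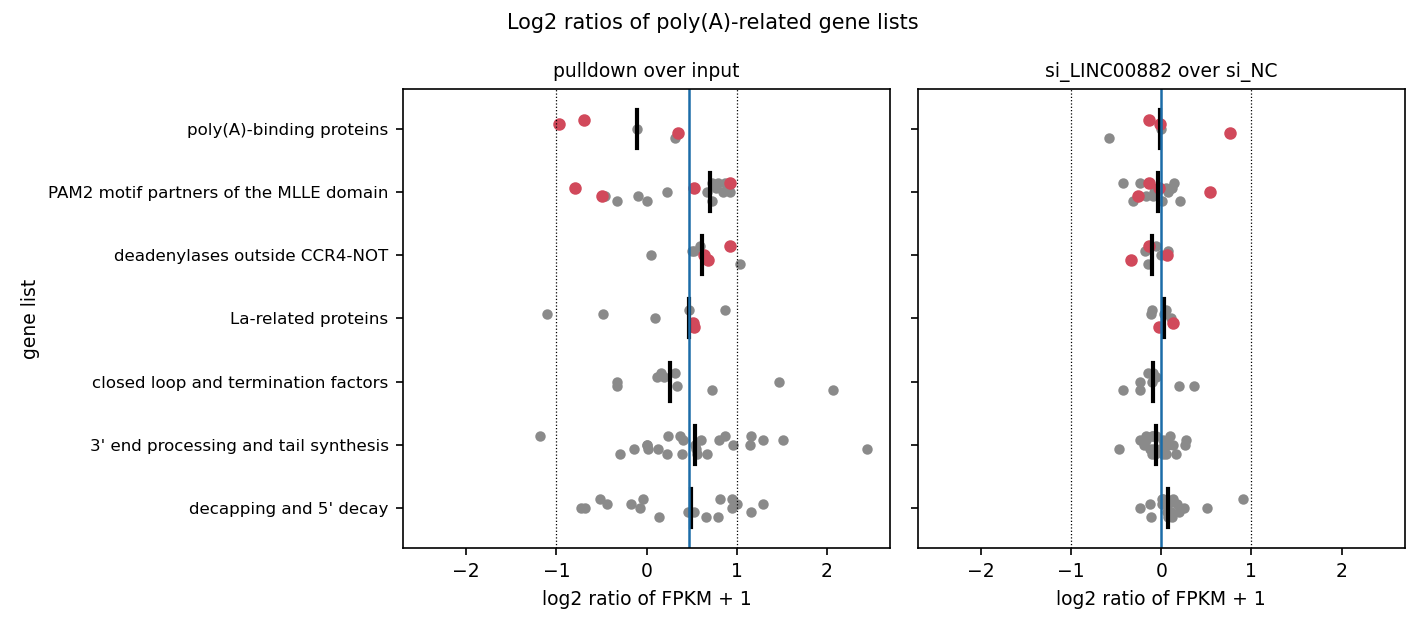
Log2 ratio of FPKM plus 1 for the genes of 7 lists (grey points, with members of the 10 in red) in the pulldown over input and in si_LINC00882 over si_NC. Black bars mark list medians, the blue line the median of all genes (0.47 and -0.01) and dotted lines 2-fold; in the right panel no point reaches 2-fold.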

How the data were processed

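The deposited values are FPKM, with 1 value for each gene in each library, per the file headers. StringTie 1.3.3, HISAT2 2.1.0, cutadapt 1.17, FastQC 0.11.7 and the GRCh37 build appear in the submitters' processing notes, with no order of steps. The gene annotation, filters, depth and RNA selection were not given in the sources used here. Groups follow the treatment label, and members were matched by symbol.

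Log2 ratios of FPKM plus a pseudocount of 1 were computed over all genes that reached 1 FPKM in a library of the pair, with values as deposited. No count model was used. Members and lists were chosen with earlier results of these data known. Named list genes are up to 3 non-members per list with the largest ratios and at least 5 FPKM. RefSeq (GRCh38.p14) supplied gene types, overlapping genes and promoter sequences, which matched 8 of the 10 members. It is not the build of the values. Other settings tried were the other pair's control library, a pseudocount of 5 or 0.1, a minimum of 5 FPKM or none, centring, a 3-fold or 1.5-fold size rule, leaving out mitochondrial genes before rescaling, and restriction to protein-coding genes. The rescaling brought the remaining genes of each library to a sum of 1000000, with the pseudocount and the minimum kept at 1. The sum of PABPN1 and its readthrough gene was a setting chosen after seeing the data. Calculations were tested on simulated data and used matplotlib 3.10.9, pandas 2.3.3, numpy 2.4.6 and Python 3.11.15.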

Additional observations from a re-analysis of the deposited data

How the results depend on the processing

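No paired analysis was possible because each group is 1 library. In the pulldown over input the number of members past 2-fold, 0 as reported, was 2 with a pseudocount of 0.1 (PAN2 and PAN3 higher), 3 with centring, 2 with rescaling without mitochondrial genes (PAN2 higher, PABPC4 lower), 6 with the 1.5-fold rule and 2 against si_NC. The share of all genes past the same size was 21.9% as reported, 33.7% with a pseudocount of 0.1, 15% with centring, 29.7% with rescaling, 48.8% with the 1.5-fold rule and 9.64% against si_NC. Rescaling raised all values, so the 1 FPKM added and the 1 FPKM minimum weighed less, and 11699 genes were compared in place of 10856. Results with rescaling, here and below, therefore do not show the effect of leaving out mitochondrial genes alone. The members' median was 0.44 with a pseudocount of 0.1, 0.26 with 5, 0.35 with a minimum of 5 FPKM, 0.34 with rescaling, -0.038 with centring and -0.11 against si_NC. In si_LINC00882 over si_NC the number, 0 as reported, was 1 with the 1.5-fold rule and 3 against input. The share of all genes was 2.01% as reported, 6.8% with the 1.5-fold rule and 25.1% against input. The members' median was -0.014 with centring, -0.012 with rescaling and 0.029 against input. In input over si_NC the number, 4 as reported, was 5 with a pseudocount of 0.1, 2 with 5 and 5 with rescaling. It was 3 of 9 with a minimum of 5 FPKM and 3 with PABPN1 summed with its readthrough gene. With the 1.5-fold rule it was 8, and with the 3-fold rule 1. The share of all genes past the same size was 25.1% as reported, 35.5% with a pseudocount of 0.1 and 9.17% with 5. It was 33.9% with rescaling, 30% with the minimum of 5 FPKM, 50% with the 1.5-fold rule and 8.45% with the 3-fold rule. The members' median in this comparison, -0.06 as reported, was -0.094 with a pseudocount of 0.1, 0.011 with 5, 0.40 with a minimum of 5 FPKM, which leaves out PAN2, 0.22 with centring and -0.12 with rescaling. Of the single members, PABPN1 changed sign with centring in the pulldown over input, 6 members changed sign there and 5 in the silencer comparison against the other control library, and none did under the other alternatives. Over all genes, the number past 2-fold after the pulldown over input was 2381 as reported, 3656 with a pseudocount of 0.1, 751 with 5, 1042 against si_NC, 706 with the 3-fold rule and 5298 with the 1.5-fold rule. In the silencer comparison it was 211 as reported, 361 with a pseudocount of 0.1, 56 with 5 and 2634 against input in place of si_NC. It was 50 with the 3-fold rule, 713 with the 1.5-fold rule and 440 with rescaling. In input over si_NC it was 2640 as reported, 964 with a pseudocount of 5, 888 with the 3-fold rule and 5256 with the 1.5-fold rule. With 1 library per group, no alternative measures the spread between samples.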

Other observations

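LSM7, a subunit of the ring that binds shortened mRNA ends before decapping, stood at 20.6 FPKM in si_NC and 39.4 with si_LINC00882 (log2 ratio 0.91), the highest ratio of the silencer comparison in the lists of poly(A)-related genes, and was named after its values were seen. LSM7 stood at 29.2 FPKM in input and 28.3 after the pulldown, between both transfected libraries. PAPD4 had the lowest ratio among the listed genes other than PABPC1L, at 7.45 FPKM in si_NC and 5.11 with si_LINC00882 (-0.47). PABPC1L stood at -0.58.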
